A study of Mus musculus with 12 samples.

Results

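The genes described here are 6 sugar transporters of the proximal tubule, Slc5a1, Slc5a2, Slc5a10, Slc2a1, Slc2a2 and Slc2a5, measured by RNA-Seq of the mouse kidney after treatment with cannabidiol (CBD). They were chosen by name for what their proteins carry, with earlier results of these data known, out of 57180 genes counted in each library. All 6 were among the 17163 genes expressed highly enough to be tested. The libraries came from 12 adult male C57BL/6J mice of the same starting age. All received 1 intraperitoneal injection a day for 28 days. The control group (n = 4) received saline with Tween 80, and the other groups (n = 4 each) received the same vehicle with CBD at 10 or 20 mg/kg b.w. Each library represents poly(A) RNA of a piece of kidney from 1 mouse, so fewer cells of a type and less RNA per cell cannot be told apart.

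Glucose and other small sugars pass freely into the filtrate and are taken back by the proximal tubule. Carriers of the SLC5 family in the brush border draw sugar into the cell together with sodium, whose gradient is kept up by the sodium pump. Carriers of the SLC2 family move sugar down its own gradient, mostly through the basolateral membrane back to the blood. Slc5a2 encodes SGLT2, which reclaims most of the filtered glucose in the early segments, and Slc5a1 encodes SGLT1, which takes up what is left further down. Slc5a10 encodes SGLT5, a carrier of mannose and fructose. Slc2a2 encodes GLUT2, the exit route of the early segments, Slc2a1 encodes the widely expressed GLUT1, and Slc2a5 encodes the fructose carrier GLUT5.

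The reads assigned to genes ranged from 15417867 to 23532088 per library. The member genes received between 476 reads (the lowest library of Slc2a1) and 5108 reads (the highest library of Slc5a2) per library. Values below are CPM, the counts scaled to a common library size after TMM normalization, and log2 fold changes and their standard errors (SE) come from edgeR's quasi-likelihood test over all genes. A gene was called when its p, adjusted by the Benjamini-Hochberg method, was below 0.1. Mitochondrially encoded genes took 3.53% to 23.4% of the counts and set 4 libraries apart, those of control mouse 2, mice 1 and 3 of the 10 mg group and mouse 3 of the 20 mg group, all with less than 10%. Values without these libraries are given for Slc5a2, Slc2a2 and Slc2a1.

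Compared per kilobase of all annotated exons in the control group, Slc5a2 was the most abundant member, with 75.0 ± 5.58 CPM per kb (SD, n = 4). By transcripts per length, scaled over all genes, it ranked at position 353 among 17874 expressed coding genes in the control group. Slc5a10 followed with 44.2 ± 9.45 CPM per kb, and the 4 control values of Slc5a2 all lay above those of Slc5a10. Slc2a2 came next with 27.4 ± 5.15 CPM per kb. The genes after it, Slc2a5 (20.0 ± 5.47 CPM per kb) and Slc5a1 (19.9 ± 3.31 CPM per kb), did not differ beyond their spread by this length. Slc2a5 was higher in 2 of 4 control mice. The ranges of Slc2a2 and Slc2a5 also overlapped, although Slc2a2 was the higher gene in 4 of 4 control mice. Slc2a1 was the least abundant member, with 8.07 ± 2.21 CPM per kb and no overlap with Slc5a1. Thus a sodium-coupled glucose carrier and a mannose and fructose carrier stood at the head of the order, both of the SLC5 family.

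In the group treated with 20 mg, the levels of Slc5a2 and Slc5a10 overlapped. Slc5a2 measured 49.3 ± 4.68 CPM per kb and Slc5a10 45.7 ± 5.71 CPM per kb (SD, n = 4), and Slc5a2 was the higher gene in 2 of 4 mice. With the length of the canonical transcript in place of all exons, the order of the group means was unchanged, and Slc5a2 was the higher gene in 3 of 4 mice of this group. By the canonical length, Slc2a5 was above Slc5a1 in 3 of 4 control mice and in 11 of all 12 mice. Their ranges were then separate at 10 mg and at 20 mg.

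**Figure D1:**
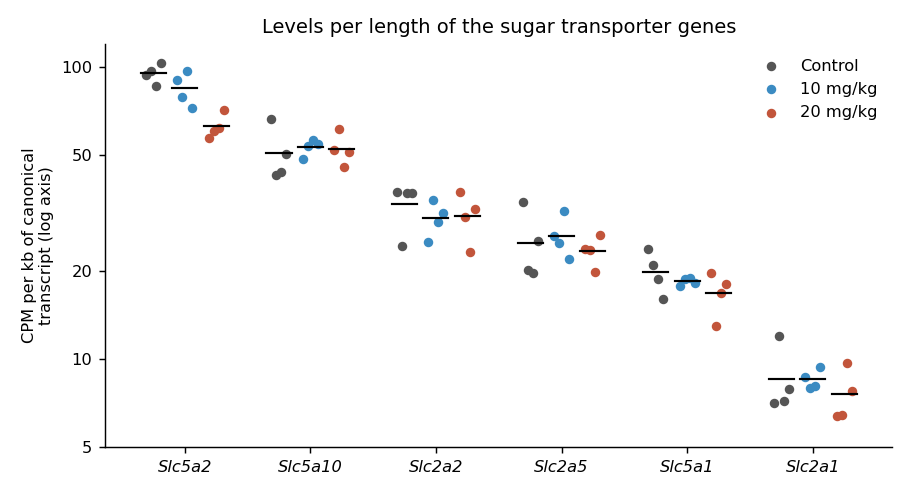
Level of each member in CPM per kilobase of the canonical transcript, on a log axis, with 1 point per mouse (n = 4 per group), colours for the groups and a black line for each group mean. Slc5a2 lies at the top in the control group (mean 95.4) and near Slc5a10 in the group treated with 20 mg (62.7 against 52.5).

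Slc5a2 was the only member that passed the test in any comparison. It lies on the plus strand of chromosome 7 (GRCm39, chr7:127864829-127871602), and its canonical transcript has 14 exons. Control mice 1 to 4 measured 214.5, 221.6, 196.9 and 235.8 CPM, and mice 1 to 4 of the group treated with 10 mg measured 204.9, 179.5, 220.5 and 164.6 CPM. Mice 1 to 4 of the group treated with 20 mg measured 130.6, 138.0, 140.5 and 162.1 CPM. All 4 mice of the higher dose lay below all control mice and, by a small margin of 162.1 against 164.6 CPM, below all mice of the lower dose. The control group and the 10 mg group overlapped.

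At 20 mg, Slc5a2 fell from a mean of 217.2 ± 16.2 to 142.8 ± 13.6 CPM (SD, n = 4 each), which is 0.657 times the control level, with a 95% interval of 0.547 to 0.790. The log2 fold change was -0.61 (SE 0.124) with an edgeR adjusted p of 0.0820, and the gene ranked at position 42 by p among all genes tested. It was thus 1 of 6 members called, where 52 of all genes tested, or 0.303%, were called in this comparison. The members were chosen with earlier results of these data known, so these shares cannot be weighed against each other. Its call was lost when any 1 of the 8 control and 20 mg libraries was left out (edgeR adjusted p 0.108 to 0.273), while the log2 fold change stayed between -0.67 and -0.57. At a stricter threshold of 0.05 it was not called.

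An exact permutation test of the log2 CPM (two-sided, 70 arrangements) gave p = 0.0286 for the 20 mg group against the control group, which is the smallest p that 4 against 4 mice allow, and 0.257 after adjustment over the 18 tests of members. Separation of the groups without overlap occurred in 5.30% of all genes tested in this comparison and in 1 of 6 members.

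Between the doses, Slc5a2 was lower at 20 mg by a log2 difference of -0.43 (SE 0.124), with an adjusted p of 0.758 by edgeR, and was not called. No gene was called in this comparison (0% of those tested, smallest edgeR adjusted p 0.758). By edgeR, 1083 genes, 6.31% of those tested, had an unadjusted p under 0.05. This share was little above the one that such a threshold passes when no gene differs. DESeq2 called 12 genes and limma-voom 0, without a member among them. The exact permutation test gave the smallest possible p, 0.0286 (0.257 after adjustment), with no overlap for Slc5a2 and for 3.10% of all genes tested. Both doses were compared with the same 4 control mice. At 10 mg, the log2 fold change of Slc5a2 was -0.17 (SE 0.124, 95% interval -0.44 to 0.09, edgeR adjusted p 0.893). In that comparison 5 genes, 0.0291% of those tested, were called, and no member was. No member was free of overlap there, against 3.19% of all genes tested.

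**Figure D2:**
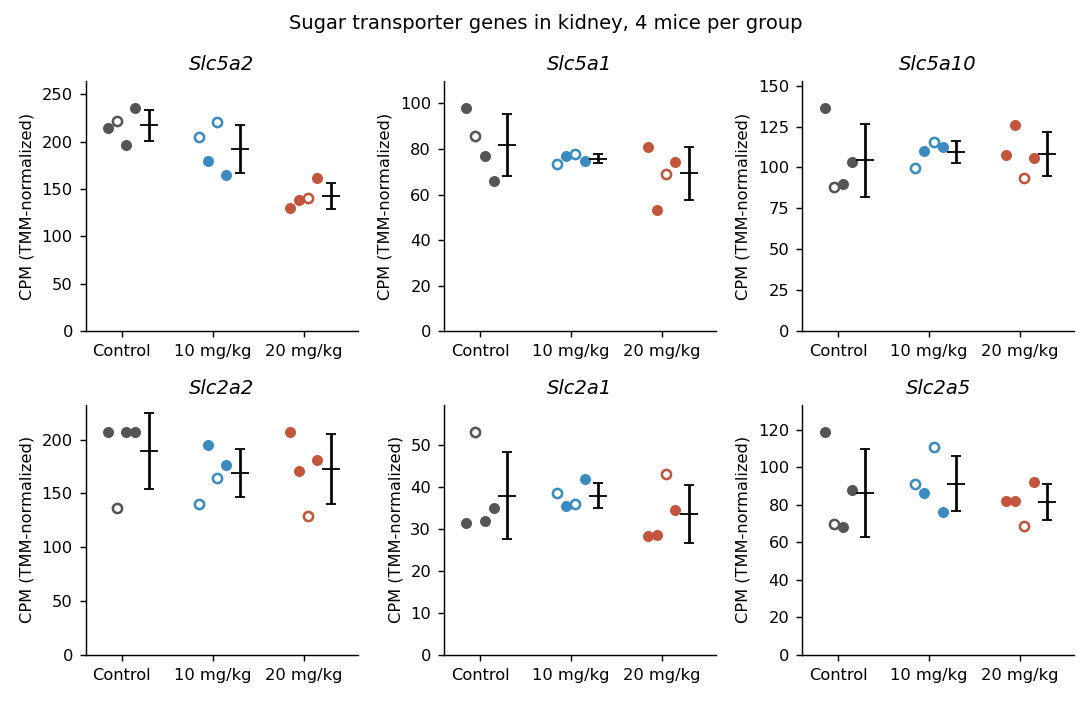
CPM of the 6 members in each mouse (points, n = 4 per group), with the group mean and SD to the right of the points. Open points are the 4 libraries with under 10% mitochondrial counts. The 4 mice of the 20 mg group lie between 130.6 and 162.1 CPM for Slc5a2, below all other mice, whereas the groups overlap for the other members.

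The ranges of Slc5a2 in libraries of low and high mitochondrial share overlapped, and the dose groups were unevenly placed in that share. The lowest values of Slc5a2, 130.6 and 138.0 CPM, belonged to the libraries of the 20 mg group with the highest shares, 20.6% and 23.4%. Without the 4 libraries of low share the log2 fold change at 20 mg was -0.59 (edgeR adjusted p 0.0485), and with the share as a covariate it was -0.56 (edgeR adjusted p 0.00976). The fit with the covariate called 1386 of all genes tested at 20 mg, against 52 in the reported fit, so its lower p is not particular to Slc5a2. Within the classes of low and high share the difference was -0.66 (1 mouse against 1) and -0.59 (3 against 3) on the log2 scale. An exact permutation within classes gave p = 0.05, the smallest that its 40 arrangements allow. The other comparisons of Slc5a2 moved more. Without the 4 libraries the value at 10 mg was -0.33 (unadjusted p 0.0271, adjusted p 0.763 by edgeR), and that between the doses was -0.26 (unadjusted p 0.0746, adjusted p 0.973 by edgeR). With the covariate they were -0.22 (edgeR adjusted p 0.658) and -0.34 (edgeR adjusted p 0.183). Neither comparison was called in these fits.

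If counting ignored the strand, reads on exons shared with an overlapping gene could be set aside as ambiguous and lost to Slc5a2. The strand setting is not given in the sources used here. Rusf1 lies on the opposite strand and shares 597 exonic bases with Slc5a2. It measured 21.1 to 30.3 CPM, and its log2 fold change at the higher dose was 0.12 (edgeR adjusted p 0.873). The part of the shared bases in the level of Slc5a2 was not tested.

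The other sodium-coupled glucose carrier, Slc5a1 (chr5:33261563-33320214, plus strand), was not called at either dose. Control mice 1 to 4 measured 98.1, 85.9, 76.9 and 66.1 CPM, and mice 1 to 4 of the 10 mg group 73.3, 77.0, 77.9 and 74.8 CPM. Mice 1 to 4 of the 20 mg group measured 80.6, 53.3, 69.0 and 74.3 CPM. The control mice spread over the whole range of the 10 mg group, in which the 4 mice were close together (coefficient of variation 2.79%). The log2 fold change at 20 mg was -0.24 (SE 0.142, 95% interval -0.54 to 0.06, edgeR adjusted p 0.714), so a level as low as 0.688 times that of the control group lay within the interval. At 10 mg it was -0.11 (95% interval -0.41 to 0.19). Leaving out single libraries moved these values to between -0.33 and -0.13 at 20 mg and between -0.20 and -0.00742 at 10 mg.

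The ratio of Slc5a2 to Slc5a1 in the same library needs no normalization between libraries. Its geometric mean was 2.68 in the control group, 2.52 at 10 mg and 2.08 at 20 mg. The difference between 20 mg and control was -0.37 on the log2 scale (exact permutation p = 0.143, 0.321 adjusted over 9 tests of ratios), and 3 of 4 treated mice lay below all control mice. It has therefore not been shown that SGLT2 and SGLT1 transcripts changed by different amounts.

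Slc2a2, the basolateral partner of Slc5a2 (chr3:28752051-28785508, plus strand), was not called in any comparison. Control mice 1 to 4 measured 207.5, 136.0, 207.1 and 206.6 CPM, those of the 10 mg group 140.5, 194.6, 164.0 and 176.6 CPM, and those of the 20 mg group 207.5, 171.2, 129.3 and 181.4 CPM. The groups overlapped, and 3 control mice were almost equal while control mouse 2 was far below them. The log2 fold change was -0.16 (SE 0.170, 95% interval -0.53 to 0.20) at 10 mg and -0.14 (SE 0.170, 95% interval -0.50 to 0.23) at 20 mg, with edgeR adjusted p of 0.927 and 0.886. Leaving out single libraries gave -0.30 to -0.0878 at 10 mg and -0.27 to -0.0213 at 20 mg. The ratio of Slc5a2 to Slc2a2 had a geometric mean of 1.16 in the control group and 0.838 at 20 mg, a log2 difference of -0.47 (exact permutation p = 0.0857, 0.321 adjusted).

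The level of Slc2a2 differed between the classes of mitochondrial share. In the 4 libraries with a low share it ranged from 129.3 to 164.0 CPM (median 138.3), and in the other 8 libraries from 171.2 to 207.5 CPM (median 200.6), so that the classes did not overlap. Each group had at least 1 library in each class. Without the 4 libraries of low share, the log2 fold changes of Slc2a2 were -0.16 at 10 mg and -0.15 at 20 mg (edgeR adjusted p 0.978 and 0.746), and with the share as a covariate -0.0672 and -0.25 (edgeR adjusted p 0.941 and 0.231). Slc2a1, GLUT1, lay on the other side, with a median of 40.8 CPM (35.9 to 53.2) in the libraries of low share and 33.2 CPM (28.3 to 41.8) in the others, with overlap. Slc5a2 had medians of 212.7 and 172.1 CPM in these classes, with ranges that overlapped widely. What sets the mitochondrial share in these libraries was not tested.

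**Figure D3:**
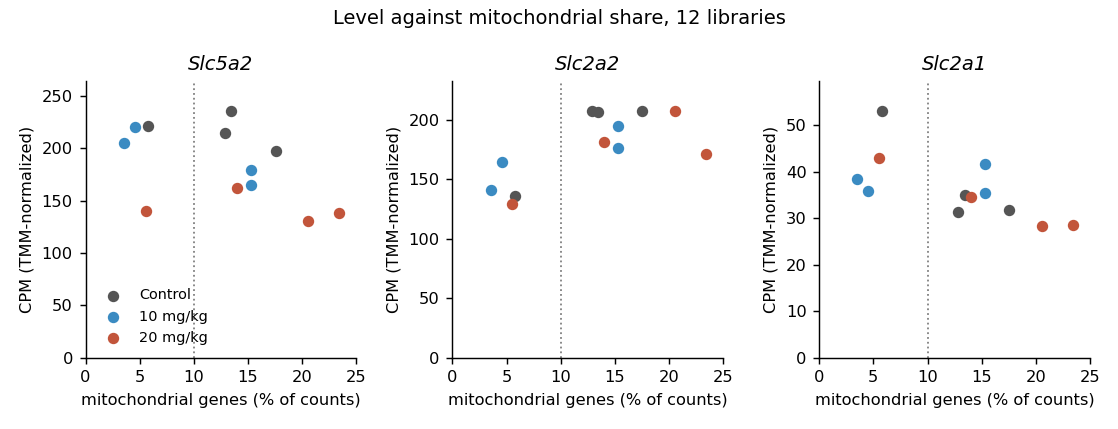
CPM of Slc5a2, Slc2a2 and Slc2a1 against the share of counts on mitochondrially encoded genes, with 1 point for each of the 12 libraries, coloured by group, and a dotted line at 10%. The 4 libraries left of the line have the 4 lowest values of Slc2a2, between 129.3 and 164.0 CPM, and come from all 3 groups.

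Slc2a1 (chr4:118965908-118996365, plus strand) had the widest relative range of the 6 members, 1.88 times from the lowest to the highest mouse. Control mice 1 to 4 measured 31.3, 53.2, 31.9 and 35.1 CPM, those of the 10 mg group 38.5, 35.5, 35.9 and 41.8 CPM, and those of the 20 mg group 28.3, 28.5, 43.1 and 34.6 CPM. Control mouse 2 was the highest and the others overlapped between groups. The log2 fold change was 0.00 (SE 0.177, 95% interval -0.38 to 0.38) at 10 mg and -0.17 (SE 0.178, 95% interval -0.55 to 0.21) at 20 mg, and neither was called by edgeR (adjusted p 0.999 and 0.858). The value at 10 mg lay so near 0 that its sign turned with upper-quartile normalization, without a filter on low counts and with the mitochondrial share as a covariate. Without the 4 libraries of low share it was 0.24 at 10 mg and -0.10 at 20 mg (edgeR adjusted p 0.927 and 0.863). Without control mouse 2 the value at 20 mg was 0.0365. The ratio of Slc2a2 to Slc2a1 had geometric means of 5.05, 4.43 and 5.13 in the control, 10 mg and 20 mg groups and did not differ beyond the spread between mice (exact permutation p = 0.914 at 20 mg and 0.629 at 10 mg, against the control group).

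The members that carry fructose or mannose, Slc5a10 and Slc2a5, had the smallest log2 fold changes of the 6 members at 20 mg. Slc5a10 (chr11:61563607-61611652, minus strand) measured 136.4, 88.2, 90.0 and 103.4 CPM in control mice 1 to 4. It measured 99.97, 110.2, 115.5 and 112.2 CPM in the 10 mg group and 107.5, 126.2, 93.6 and 105.5 CPM in the 20 mg group. Control mouse 1 was the highest of all 12, and the values of both treated groups lay within the range of the control group. The log2 fold changes against the control group were 0.07 (95% interval -0.24 to 0.37) at 10 mg and 0.05 (95% interval -0.26 to 0.36) at 20 mg, with edgeR adjusted p of 0.968 and 0.964. Slc5a10 shares 393 exonic bases with Fam83g on the opposite strand, which measured 14.1 to 25.9 CPM, with an uncalled log2 fold change at the higher dose of -0.56 (edgeR adjusted p 0.203).

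Slc2a5 (chr4:150196268-150228931, plus strand) measured 119.1, 69.98, 68.4 and 88.0 CPM in control mice 1 to 4. It measured 91.4, 86.6, 111.0 and 76.4 CPM in the 10 mg group and 82.3, 82.1, 69.0 and 92.3 CPM in the 20 mg group. Control mouse 1 was again the highest of all 12, and every treated mouse lay within the range of the control group. The log2 fold changes against the control group were 0.08 (95% interval -0.29 to 0.45) at 10 mg and -0.09 (95% interval -0.46 to 0.29) at 20 mg, with edgeR adjusted p of 0.968 and 0.937.

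**Figure D4:**
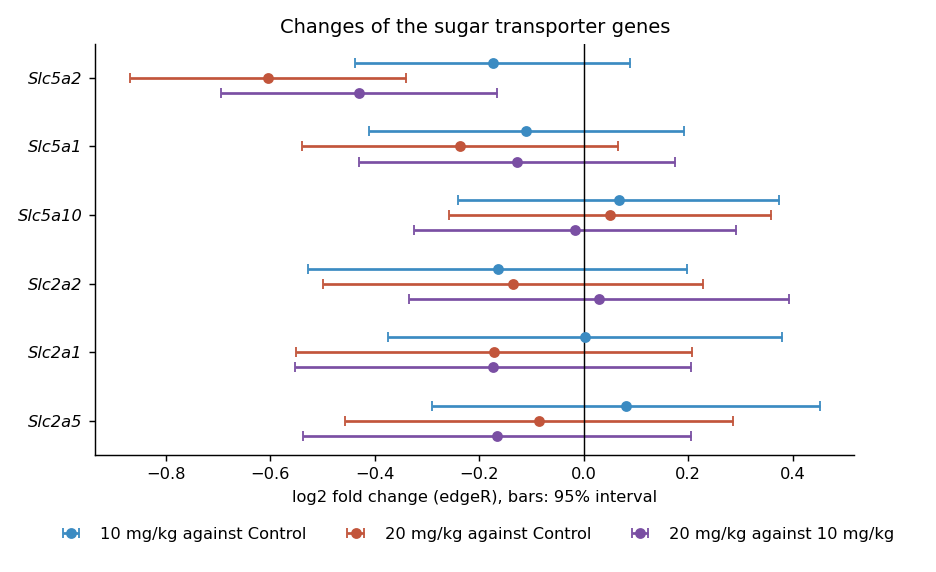
Log2 fold change of each member (points) with its 95% interval (bars) from edgeR, for 10 mg and 20 mg against the control group and for 20 mg against 10 mg. For Slc5a2 the intervals of 20 mg against control (-0.87 to -0.34) and of 20 mg against 10 mg (-0.69 to -0.17) lie below 0, whereas the intervals of the other 5 members include 0.

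Across the 12 mice, 2 of the 15 pairs of members passed the adjustment (adjusted p under 0.1) by Pearson's r. Of these, only Slc2a1 and Slc2a2 also passed by Spearman's rho. For Slc5a10 and Slc2a5, r of the log2 CPM was 0.746 (permutation p = 0.00548, 0.0466 adjusted over the 15 pairs of members), while Spearman's rho was 0.580 (permutation p = 0.0516, 0.387 adjusted). The r was 0.519 without the 2 libraries farthest from the median, 0.767 after removal of group means and 0.730 in the 8 libraries of high mitochondrial share. For Slc2a1 and Slc2a2, r was -0.730 (permutation p = 0.00622, 0.0466 adjusted) and rho -0.776 (permutation p = 0.00452, 0.0678 adjusted). Their r was -0.600 without the 2 libraries farthest from the median and -0.833 after removal of group means. Within the 8 libraries of high share it was -0.260, so the relation was not seen at that strength within the class, and the 4 libraries of low share were too few for a value. None of the other 13 pairs passed the adjustment by Pearson's r (smallest adjusted p 0.247).

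The sequences before the starts of Slc5a10 and Slc2a5 are shown because this pair kept a high r within the libraries of high share. They hold the 250 bases upstream of the annotated start from RefSeq (GRCm38.p6, a build other than that of the positions above), at chr11:61720800-61721049 on the minus strand and chr4:150119094-150119343 on the plus strand. Capitals mark matches on either strand to the half-site of HNF4 (AGGTCA), the E-box (CACGTG) or the GC-box (CCGCCC).
Slc5a10: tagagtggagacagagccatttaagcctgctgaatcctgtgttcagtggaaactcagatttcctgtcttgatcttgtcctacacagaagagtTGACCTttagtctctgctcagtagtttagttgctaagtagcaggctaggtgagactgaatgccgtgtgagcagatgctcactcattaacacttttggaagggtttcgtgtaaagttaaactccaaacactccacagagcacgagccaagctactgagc
Slc2a5: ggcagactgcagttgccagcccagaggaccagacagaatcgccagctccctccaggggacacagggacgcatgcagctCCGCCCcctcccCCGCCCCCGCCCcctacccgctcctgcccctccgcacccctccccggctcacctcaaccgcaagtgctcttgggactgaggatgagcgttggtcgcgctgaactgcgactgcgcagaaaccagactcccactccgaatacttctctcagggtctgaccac
The Slc5a10 window, the first of its 2 in the table, holds an HNF4 half-site beginning at position -158, whereas the Slc2a5 window holds GC-boxes at -172, -160 and -154 and no such half-site. The windows of this pair shared no match to these 3 motifs. Of all 32851 windows of this length, 14.02% held the HNF4 half-site, 32.7% the GC-box and 6.02% the E-box. Of the other members, the Slc2a2 window held an HNF4 half-site at -21, the Slc2a1 window GC-boxes at -45 and -20, and the Slc5a1 window an E-box at -143. Windows were present for 5 of 6 members, Slc5a2 being the exception. A match is a description of the letters in the window, not a site shown to be used.

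The genes whose log2 CPM was most like that of each member over the 12 libraries differed between members. For Slc5a2 they were Gart, Supt6 and Rnf123 (Pearson's r 0.925, 0.922 and 0.920, Spearman's rho 0.909, 0.916 and 0.958), and 5 of the 17162 other genes reached an r of 0.9. For Slc2a2 they were Fmo2, Lipa and Cops3 (r 0.965, 0.958 and 0.955, rho 0.951, 0.874 and 0.902), and 97 genes reached 0.9. The large number for Slc2a2 stands beside the difference of its level between the classes of mitochondrial share. For Slc5a1 they were Cs, Aadac and Insig2 (r 0.902, 0.888 and 0.886, rho 0.692, 0.832 and 0.762), and for Slc2a1 they were Aif1l, Ak1 and Fam234b (r 0.905, 0.905 and 0.887, rho 0.825, 0.867 and 0.797). For Slc5a10 they were Gm10819, Cyth3 and Akr1b7 (r 0.855, 0.8293 and 0.805, rho 0.790, 0.895 and 0.804), and for Slc2a5 they included Slc6a13 and Ptcd1 (r 0.826 and 0.812, rho 0.783 and 0.832). These values all share the same 12 libraries and are a description without a test.

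As a list, the 6 members had a median log2 fold change of -0.15 at 20 mg against 0.01 over all genes tested, with 5 of 6 below 0 and only Slc5a2 called. At 10 mg the median was -0.05 against 0.01, with 3 of 6 above 0. Of 13 other tested members of the SLC5 and SLC2 families, none was called at either dose or between the doses. Their median at 20 mg was -0.13, and the lowest p belonged to Slc5a11, the sodium-coupled inositol carrier SMIT2 (-0.45, SE 0.140, edgeR adjusted p 0.379), and Slc2a12, the glucose carrier GLUT12 (-0.33, SE 0.181, edgeR adjusted p 0.670).

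None of the 8 tested partners and regulators of these carriers was called. Pdzk1, a scaffold of brush border carriers, measured -0.47 on the log2 scale at the higher dose (SE 0.202, edgeR adjusted p 0.540), and Sgk1, a kinase that raises carrier activity at the membrane, -0.28 (SE 0.214, edgeR adjusted p 0.789). Pdzk1ip1, which encodes the SGLT2 partner MAP17, had a value of -0.06 (SE 0.243) at 20 mg and was picked for its role after its value was seen. The list median at 20 mg was -0.10.

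The 3 genes of the sodium pump, which keeps up the gradient used by the SLC5 carriers, were not called (median 0.08 at 20 mg). Atp1b1, its beta subunit, measured 0.13 (SE 0.163, edgeR adjusted p 0.885) and Fxyd2, its gamma subunit, 0.08 (SE 0.200, edgeR adjusted p 0.954). Of 3 tested hexokinases, which phosphorylate glucose inside the cell, none was called. Hk2, with a mean of only 1.04 CPM in the control group, measured -0.71 (SE 0.406, edgeR adjusted p 0.694). Hk1, with a mean of 109.0 CPM there, measured -0.20 (SE 0.212, edgeR adjusted p 0.858). The list median was -0.21. Of 9 genes of fructose and mannose use, none was called and the median was 0.00. Tkfc, the triokinase of fructose breakdown, measured -0.27 (SE 0.144, edgeR adjusted p 0.657) and Glyctk, the glycerate kinase, -0.23 (SE 0.134, edgeR adjusted p 0.707).

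Markers of the early proximal tubule, where Slc5a2 is expressed, were lower than in the control group at both doses, as the median of the list. The 8 markers summed to 7676 to 9851 CPM (median 8135) in the control group, 6256 to 8150 CPM (median 7168) at 10 mg and 5938 to 7197 CPM (median 6709) at 20 mg, without overlap between the 20 mg and control groups. Of single genes tested, 5.30% were without overlap in this comparison. The most abundant markers, Slc34a1 and Lrp2, weighed most in the sum of the 8 markers, with means of 3553 and 2227 CPM in the control group. Of all the markers, 0 of 8 lay above 0 at 20 mg by log2 fold change (median -0.23) and 1 of 8 at 10 mg (median -0.26), and none was called. Slc5a2 itself was at -0.17 at 10 mg and -0.61 at 20 mg. Lrp2 and Cubn, the endocytic receptors megalin and cubilin, had the lowest p at 20 mg, with -0.76 (SE 0.182, edgeR adjusted p 0.173) and -0.66 (SE 0.313, edgeR adjusted p 0.597). Relative to this sum, Slc5a2 was at 2.33% to 2.89% in the control group and at 1.81% to 2.37% at 20 mg, a log2 difference of -0.26 (exact permutation p = 0.0857, 0.214 adjusted over 6 tests). A lower level at 20 mg was not particular to the early markers. The 3 markers of the distal convoluted tubule had a median log2 fold change of -0.41, with 0 of 3 above 0 and none called. The part of the early markers in the fall of Slc5a2 was not tested further.

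The 7 markers of the late proximal tubule had a median log2 fold change of 0.10 at 20 mg with none called, and summed to 2443 to 2584 CPM in the control group, 2809 to 3944 CPM at 10 mg and 2138 to 3331 CPM at 20 mg. The sum at 10 mg lay above that of all control mice (median log2 fold change 0.09, 6 of 7 above 0, none called). Abundant genes weigh most in such a sum. Slc7a13, with a mean of 875.1 CPM in the control group, had the largest log2 fold change of the list at 10 mg. That value was 0.83 (SE 0.337, edgeR adjusted p 0.812), and the gene is named here after its value was seen. The log2 ratio of summed early to late markers differed from the control group by -0.62 at 10 mg (exact permutation p = 0.0286, the smallest possible, 0.171 adjusted over 6 tests) and -0.37 at 20 mg (exact permutation p = 0.143, 0.214 adjusted). The lowest log2 ratios belonged to libraries of low mitochondrial share, 0.67 and 0.99 in mice 1 and 3 at 10 mg and 0.83 in mouse 3 at 20 mg. Control mouse 2, also of low share, measured 1.59. Mice 2 and 4 at 10 mg, of high share, measured 1.53 and 1.30. The part of the mitochondrial share in this ratio was not tested. Atp11a and Slc22a19 had the lowest p at 20 mg (-0.27, SE 0.176, edgeR adjusted p 0.746, and -0.36, SE 0.258, edgeR adjusted p 0.773). The 5 adipocyte markers, of which 4 were tested, summed to 96.0 to 258.6 CPM in the control group, 67.8 to 135.1 CPM at 10 mg and 67.9 to 114.2 CPM at 20 mg. All 4 tested markers had an unadjusted edgeR p under 0.05 at 20 mg, against 8.45% of all genes tested, and none was called. Fabp4 was at -0.74 (SE 0.210, edgeR adjusted p 0.312) and Adipoq at -3.42 (SE 1.03, edgeR adjusted p 0.347). The remaining marker lists of kidney and neighbouring cells had no called gene, and their medians at 20 mg ranged from -0.41 (distal convoluted tubule) to 0.14 (endothelium). Their part in the level of Slc5a2 was not tested.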

How the data were processed

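Kidney poly(A) RNA of 12 mice, 4 per group, was sequenced by the authors with CORALL V2 libraries. Per the labels and the study's methods, the authors trimmed reads with Flexbar, mapped them with STAR 2.7.5c to GRCm39 and counted them with HTSeq 1.99.2. The deposited values are whole counts per Ensembl gene and library, without normalization. The annotation release, strand setting, use of molecular identifiers and time of day of killing are not given in the sources used here, so counts may include repeated copies of a molecule. The labels do not say whether mice with the same replicate number belong together.

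Summary lines of the counting tool were left out: reads on no gene were 12.1% to 19.9% and ambiguous reads 4.72% to 5.29% of uniquely mapped reads. Identifiers were matched to GENCODE vM39 (99.0% of identifiers, 99.95% of counts). Genes were filtered by filterByExpr (17163 of 57180 kept), normalized by TMM and fitted with edgeR 4.0.16 in R 4.3.3 (quasi-likelihood, 3 group means, 12 libraries). P-values were adjusted by Benjamini-Hochberg over all genes tested, with calls under 0.1. Log2 CPM used a prior count of 2. Single genes and ratios were compared by exact permutation tests (SciPy 1.17.1), and correlations by 100000 permutations. The tests were tested on simulated data. The edgeR p-values rest on a spread shared by the 3 groups of 4 mice and drawn toward that of other genes. The exact permutation tests rest on the mice of the 2 groups compared, and the correlation tests on all 12 libraries.

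The members and the gene lists (103 of 104 symbols matched) were chosen with earlier results of these data known. Named genes are all members, the 3 genes most like each, and from each list the called genes or otherwise the 2 genes with the lowest p at 20 mg, of which those of the remaining marker lists are given as counts. A gene that these rules name is not reported here. Alternatives were RLE and upper-quartile normalization, DESeq2 1.42.0, limma-voom (limma 3.58.1), no filter, at least 10 counts in every library, a replicate block, the mitochondrial share as a covariate, removal of mitochondrial genes, a threshold of 0.05, only the 2 groups compared, and leaving out each library. Leaving out the 4 libraries of low mitochondrial share, the comparison within these classes, the ratio to early tubule markers and the canonical length were chosen after seeing the data.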

Additional observations from a re-analysis of the deposited data

Results flagged for a closer look

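In the control group, the level of Slc2a2 in mouse 2 (log2 CPM 7.09, or 136.0 CPM) lay far from the other 3 mice, which measured 206.6 to 207.5 CPM, by Dixon's test for a single distant value. In the same mouse the log2 ratio of Slc2a2 to Slc2a1 was 1.35 and was flagged in the same way. Both values belong to a library with a mitochondrial share of 5.77%, against 12.8% to 17.5% in the other control libraries. Of 27 groups of values examined, chance would be expected to set apart about 1 in 20.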

How the results depend on the processing

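Slc5a2 at 20 mg kept its direction in all alternatives tried, with log2 fold changes of -0.62 to -0.56 in those that kept all libraries or left out the 4 of low mitochondrial share, and edgeR adjusted p or that of the other tools from 0.000638 (DESeq2) to 0.206 (replicate block). With the replicate number as a block it was -0.61 and 0 members were called, as at an adjusted p under 0.05. Same-numbered mice did not deviate together (correlations -0.33 to 0.32), and 2 of 12 checks had a library closest to its own number. No pairing by number was seen in these checks, and the labels do not say whether the numbers pair the mice. Leaving out single libraries gave 0 to 1 members called at 20 mg. None of the other members was called in any comparison under any alternative.

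The number of genes called at 10 mg, at 20 mg and between the doses (5, 52 and 0) was 331, 416 and 256 without a filter on low counts, 40, 182 and 12 with DESeq2, and 15, 1386 and 62 with the mitochondrial share as a covariate. It was 3 and 23 at an adjusted p under 0.05 at 10 and 20 mg, 26 and 107 without the 4 libraries of low share, and 27 with the replicate block at 20 mg. Without single libraries it was 2 to 8 at 10 mg and 14 to 54 at 20 mg. The cause of these changes was not tested.

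Signs turned only for values that were not called. Slc2a1 at 10 mg was 0.00213 in the reported fit, and -0.00297 with upper-quartile normalization, -0.0229 without a filter and -0.0494 with the share as a covariate. With that covariate, Slc5a10 at 20 mg was -0.00341 and Slc2a2 between the doses -0.18. Without the 4 libraries, Slc2a5 was -0.18 at 10 mg and 0.0756 between the doses, and Slc5a10 between the doses 0.0286. Leaving out single libraries gave ranges of -0.00831 to 0.22 (Slc5a10), -0.0774 to 0.21 (Slc2a1) and -0.0277 to 0.28 (Slc2a5) at 10 mg. At 20 mg they were -0.0338 to 0.21 (Slc5a10), -0.31 to 0.0365 (Slc2a1) and -0.18 to 0.11 (Slc2a5), and between the doses -0.0981 to 0.0469 (Slc5a10) and -0.0720 to 0.14 (Slc2a2). For log2 ratios they were -0.18 to 0.0513 (Slc5a2 to Slc5a1, 10 mg), -0.15 to 0.13 (Slc5a2 to Slc2a2, 10 mg) and -0.30 to 0.28 (Slc2a2 to Slc2a1, 20 mg). With 4 mice per group, the intervals of the uncalled members include levels as low as 0.681 times that of the compared group (Slc2a1 between the doses).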
